A study of Mus musculus with 10 samples.

Results

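The ventricles of TM175 mice, which carry a mutant alpha-tropomyosin transgene (alpha-TM175), were compared with those of nontransgenic controls (NTG). Of the 10 arrays of the series 6 belong to the comparison, 3 per genotype, chosen by their genotype label alone. In each genotype arrays 1 and 2 each carried RNA of 1 heart, and array 3 carried a pool of 20 heart extracts. The other 4 arrays were of alpha-TM180 mice with a different mutant tropomyosin. For the comparison of TM175 with NTG they served only the shared estimates of the model. They are set beside TM175 and NTG later on. The labels list no treatment. The promoter of the transgene and the age, sex and strain of the mice are not given in the sources used here, and nothing says whether the pools held the hearts that were also run singly. The p-values therefore measure the spread between these arrays.

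Alpha-tropomyosin is a rod-shaped coiled coil that winds along thin filaments and, with troponin, sets when myosin can bind actin. Mutations in its gene cause familial hypertrophic cardiomyopathy, an inherited thickening of the heart wall. Hearts under load are known for re-expressing fetal genes such as the slow beta-myosin heavy chain Myh7, for laying down collagen-rich matrix made mainly by fibroblasts, and for shifting away from fatty acids as fuel. The question here was which genes differed in TM175 ventricles and by how much.

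Promoter sequence is shown for 5 genes chosen by hand as examples. Myh7 and Postn are among the rises, H2-Aa and Hccs among the falls, and H2-Eb1 was not called. H2-Ab1, Pkia and Ces1d, also among the larger falls, had no promoter entry. Each line gives the 250 bases before a start site, 5′ to 3′ in the direction of the gene, from RefSeq on build GRCm38.p6. Where the table held several starts for a gene (Myh7 and Postn, 2 each), the one furthest downstream was taken. Capitals mark 4 motifs searched on both strands, and no match overlapped another. The letters TATATA resemble the element bound by the TATA-binding protein. CCAAT was searched with its reverse complement ATTGG. TGACGTCA is the palindrome of the cAMP response element. CCGGAAG, with its reverse complement CTTCCGG, resembles sites of ETS factors.
Myh7, chr14:54994550-54994799, minus strand: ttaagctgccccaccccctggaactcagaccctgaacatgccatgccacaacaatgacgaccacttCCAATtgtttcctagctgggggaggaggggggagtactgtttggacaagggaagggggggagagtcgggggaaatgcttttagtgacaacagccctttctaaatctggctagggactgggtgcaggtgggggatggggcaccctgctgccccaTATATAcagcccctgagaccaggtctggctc
Postn, chr3:54360857-54361106, plus strand: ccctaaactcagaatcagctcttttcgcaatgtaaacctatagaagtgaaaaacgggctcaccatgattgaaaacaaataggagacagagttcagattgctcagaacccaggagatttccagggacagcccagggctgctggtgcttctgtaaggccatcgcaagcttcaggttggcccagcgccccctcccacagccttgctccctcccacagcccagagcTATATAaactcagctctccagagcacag
H2-Aa, chr17:34287824-34288073, minus strand: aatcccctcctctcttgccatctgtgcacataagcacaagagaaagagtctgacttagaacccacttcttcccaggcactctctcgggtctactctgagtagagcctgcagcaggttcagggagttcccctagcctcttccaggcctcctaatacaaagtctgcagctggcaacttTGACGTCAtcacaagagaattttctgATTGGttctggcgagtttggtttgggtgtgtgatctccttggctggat
H2-Eb1, chr17:34305617-34305866, plus strand: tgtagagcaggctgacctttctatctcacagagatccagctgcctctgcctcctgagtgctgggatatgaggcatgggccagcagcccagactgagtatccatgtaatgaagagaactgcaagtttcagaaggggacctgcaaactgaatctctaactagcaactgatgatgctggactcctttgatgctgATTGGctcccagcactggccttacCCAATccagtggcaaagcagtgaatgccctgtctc
Hccs, chrX:169320373-169320622, minus strand: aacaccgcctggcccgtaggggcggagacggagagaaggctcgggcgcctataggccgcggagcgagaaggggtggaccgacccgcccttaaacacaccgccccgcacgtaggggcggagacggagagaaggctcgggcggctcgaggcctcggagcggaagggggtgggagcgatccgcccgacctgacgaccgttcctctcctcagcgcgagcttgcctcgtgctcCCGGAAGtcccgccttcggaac
Myh7 and Postn, the genes with the largest rises, held TATATA at 31 and 28 bases before the start, a motif found in 6.19% of 27025 genes with a promoter in the table. The H2-Aa window held TGACGTCA (1.77% of genes) at 74 bases before the start and ATTGG (37.5%, both strands) at 48. The H2-Eb1 window held ATTGG at 59 and CCAAT at 35 but no TGACGTCA. Hccs, the fall with the smallest adjusted p, held CCGGAAG at 22 bases before the start. Promoters were matched for 21 of 29 genes that rose and 108 of 142 that fell. CCGGAAG or CTTCCGG stood in 0 of the 21 and in 20.4% of the 108, beside 12.9% of 9887 genes measured on the array and 15.9% of the 5924 with a probe set above the median level. TATATA stood in 3 of the 21 (14.3%) and 2 of the 108 (1.85%), beside 3.99% of measured genes and 2.65% of those above the median level. CCAAT or ATTGG stood in 57.1% of the 21 and 39.8% of the 108, beside 39.9% of measured genes and 40% above the median level. TGACGTCA stood in 0 of the 21 and 0.926% of the 108, beside 2.53% and 2.95%. These matches describe letters in a window and show no binding, and their part in the differences was not tested.

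Values are probe set intensities in linear units, and all differences below are TM175 minus NTG on the log2 scale unless a fold is given. The median intensity was 66.7 to 71.0 per array, and the log2 values of the 6 arrays correlated at 0.966 to 0.991. Cardiomyocyte markers were bright in all 6 arrays, with the alpha-myosin heavy chain Myh6 at 7385 to 9210 and the ventricular light chain Myl2 at 10069 to 10510. Atrial Sln, Myl4 and Myl7 lay at 32.4 to 56.5, 46.4 to 169.7 and 37.2 to 150.9, with Myl4 and Myl7 highest in NTG heart 1 and Myl7 as high in the TM175 pool. Tpm1, the gene of the transgenic protein, read 16517, 16167 and 15434 in TM175 against 12400, 13205 and 11241 in NTG. All 3 TM175 arrays were brighter, by 1.31-fold (95% interval 1.15 to 1.48), and the adjusted p of limma was 0.0512. It passed in 1 of 10 fits that each left out 1 array, without NTG heart 2.

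TM175 heart 1 stood apart from the other arrays in genes of the sex chromosomes and in load-responsive genes. Xist, the RNA that silences one X chromosome in female cells, read 987.6, 129.9 and 414.1 in TM175 and 99.9, 136.2 and 148.8 in NTG. The Y-linked translation factor gene Eif2s3y read 7.23, 52.5 and 38.3 in TM175 and 55.3, 46.1 and 46.7 in NTG. TM175 heart 1 was high in Xist and low in Eif2s3y, and the TM175 pool lay between it and the rest in Xist. The other measured Y-linked genes, on dim probe sets, set it less apart. Kdm5d read 33.3, 45.3 and 37.7 in TM175 and 64.5, 49.9 and 51.1 in NTG, and Uty read 40.0, 37.9 and 32.7 against 48.3, 50.4 and 47.3, both with all TM175 arrays below all controls. Of the called probe sets 9 lower and 1 higher are on the X chromosome. Counted by gene, 9 of the 169 called genes placed on chromosomes were on X, beside 393 of all 12155 genes placed. The part of these differences in the results was not tested. Without TM175 heart 1, 14 probe sets passed, 11 of them among the 195 called with it. Of the 77 called probe sets chosen by the naming rule 7 passed without it, those of Myh7, Postn, Hccs, Pkia, Dld, Hsdl2 and Adk. The other 70 had adjusted p of 0.0676 to 0.114 in limma, and all 77 kept their direction.

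**Figure D1:**
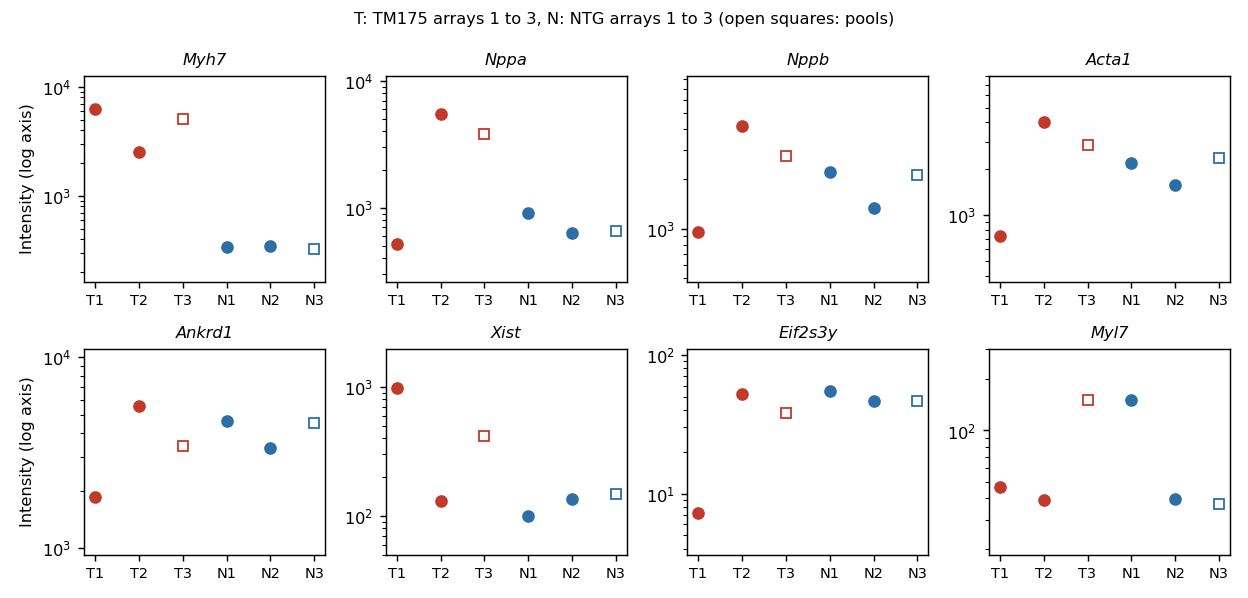
Intensity of 8 genes in each of the 6 arrays on log axes, with red for TM175, blue for NTG, filled circles for single hearts and open squares for pools. Myh7 separates the groups, while TM175 heart 1 (T1) is the lowest of all 6 arrays for Nppa, Nppb, Acta1, Ankrd1 and Eif2s3y and the highest for Xist.

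Among called probe sets falls outnumbered rises in TM175 ventricles. Of 22626 probe sets 195 (0.862%) passed an adjusted p of 0.05 in limma with extract type in the model, 29 higher (0.128%) and 166 lower (0.734%). They stood for 171 genes, 29 higher and 142 lower. Falls also outnumbered rises in the other fits with 91 calls or more. Falls and rises numbered 328 and 95 with array weights, and 142 and 45 after a second quantile normalization. The excess was not seen without adjustment of p. With 1 probe set for each gene, 1592 genes were higher and 1337 lower at an unadjusted p under 0.05. Without extract type 2 probe sets rose and 0 fell, and 2 rose and 2 fell both in the 6 arrays alone and with the replicate number as a block. These counts are too small to show a direction. The differences were mostly small, with 2 probe sets at least 2-fold higher and 12 at least 2-fold lower, and medians of 0.57 among rises and -0.65 among falls. The 3 TM175 arrays lay beyond all 3 NTG arrays for 28 of the rises and 153 of the falls; over all probe sets 8.42% lay above in this way and 8.11% below. Falls sat on brighter probe sets, with a median NTG intensity of 317, than rises, with 92.6, and the median of all probe sets was 69.1.

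The number of calls rested on single arrays. It was 14 without TM175 heart 1, 107 without TM175 heart 2, 6 without the TM175 pool, 6 without NTG heart 1, 1247 without NTG heart 2 and 9 without the NTG pool. Leaving out an array of the other transgenic line, which changes only the shared estimates, gave 5 without its pool and 91, 103 and 137 without its single hearts. All 195 kept their sign in all 10 of these fits, which share most of their arrays with the comparison that chose them. Of the 195, 4 passed in all 10, those of Myh7, Postn, Hccs and Pkia, and 53 passed in at least 5. Without extract type in the model 2 probe sets passed, Myh7 and Postn. Other probe sets of the called genes numbered 196 in 107 genes, and 159 of them went the same way. Of the 196, 13 were also called, beside 0.862% of all probe sets, and 0 were called the opposite way. No background was computed for the 159.

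**Figure D2:**
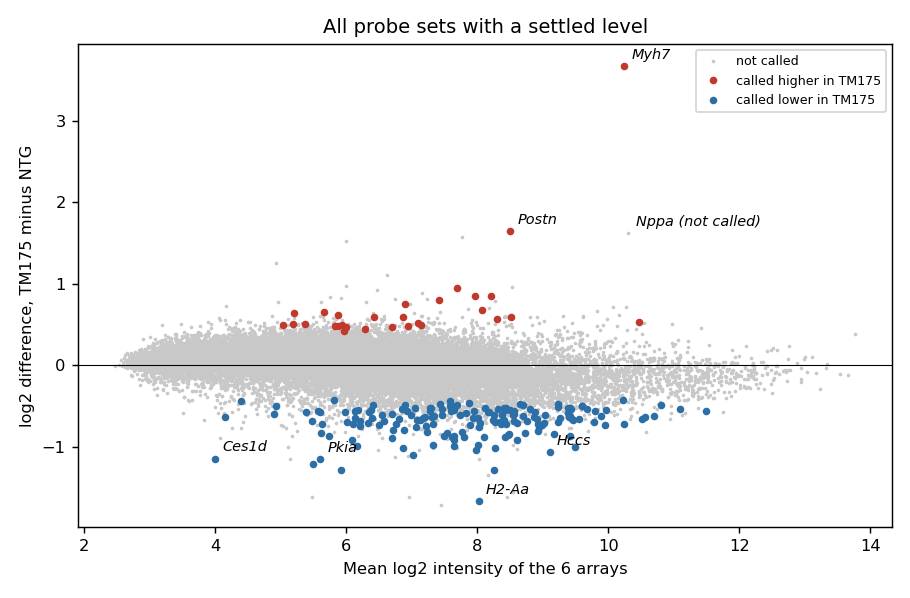
Log2 difference between TM175 and NTG against the mean log2 intensity of the 6 arrays, 1 point for each probe set with a settled level. Called rises (red) are few and led by Myh7 and Postn, called falls (blue) lie mostly between -0.4 and -1.3, and Nppa is not called at 1.62.

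Myh7 had the largest rise. It read 6319, 2529 and 5063 in TM175 hearts 1 and 2 and the pool, and 341.6, 349.8 and 325.4 in NTG. Every TM175 array was far above every NTG array, by 12.8-fold (95% interval 8.59 to 19.0; limma adjusted p 0.000191). Among the 8 measured genes of myosins and the thick filament no other member was called, and the other 7 lay between -0.19 and 0.10, so the list's median was -0.02. Myh6, the fast adult form, read 7432, 7405 and 7385 against 8104, 9210 and 7811, a difference of -0.17 with an adjusted p of 0.289. A second Myh6 probe set scattered from 10.4 in TM175 heart 1 to 1623 in the NTG pool and was not called. Levels of different probe sets cannot be set against each other, so the share of Myh7 in total myosin was not computed.

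The natriuretic peptides and other load-responsive genes split the TM175 arrays. Nppa, the atrial natriuretic peptide gene, read 521, 5478 and 3822 in TM175 and 906, 635 and 655 in NTG. TM175 heart 2 and the pool were above all controls and TM175 heart 1 was below them, so the difference of 1.62 had an adjusted p of 0.169. Without TM175 heart 1 it was 2.70 with an adjusted p of 0.000367. Nppb, the B-type peptide gene, read 952, 4203 and 2737 against 2210, 1328 and 2099, and skeletal alpha-actin Acta1 read 733, 4024 and 2857 against 2162, 1562 and 2356. Ankrd1, an ankyrin repeat protein that responds to stretch, followed with 1841, 5546 and 3434 against 4648, 3342 and 4526. In all 3 genes TM175 heart 1 was the lowest and TM175 heart 2 the highest of the 6 arrays. Of 15 measured stress and fetal genes 1, Myh7, rose and 0 fell, beside a background of 0.234% of genes with a probe set called higher and 1.15% lower.

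Matrix genes were among the larger rises. Postn, periostin, a secreted protein that cross-links collagen in stressed matrix, read 562, 607 and 772 in TM175 and 218, 173 and 227 in NTG. The groups did not overlap and differed 3.14-fold (95% interval 2.47 to 3.99; limma adjusted p 0.00206). Among 16 measured matricellular genes 3 rose, beside 0.234% of all genes, and 15 of 16 had a positive difference, beside 58.4% of all genes. The other risers were Fstl1, a follistatin-like glycoprotein of activated fibroblasts, and Fn1, fibronectin. Fstl1 read 331, 416 and 452 against 264, 190.5 and 211, 1.80-fold higher, while its other probe set differed by 0.52 and was not called. Fn1 read 365.2, 391.9 and 391.8 against 235, 274 and 269 on its called probe set, 1.48-fold higher, while its other probe set differed by 0.01. Sparc, a collagen-binding matrix protein, read 2298, 2442 and 2428 against 1819, 1686 and 1547, with no overlap and an adjusted p of 0.0523.

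All 8 fibrillar collagen genes had positive differences, with a median of 0.39 beside 0.04 for all 12393 genes. 1 of them was called, beside 0.234% of all genes called higher. This was Col1a2, a chain of type I collagen, on its dimmer probe set with 234, 296 and 345 against 154, 121 and 177.5. Its brighter probe set differed by 0.66 with an adjusted p of 0.0779. Col1a1 read 370, 537 and 699.6 against 266, 203 and 349, where all TM175 arrays were above all controls, and had an adjusted p of 0.0507. Col3a1, the collagen of fine reticular fibres, read 1503, 1204 and 2216 against 945, 694 and 1377, which overlapped because the NTG pool exceeded TM175 heart 2. Among 25 measured genes of other collagens and of the basement membrane (laminins, nidogens and perlecan) 22 were higher and 0 were called, with a median of 0.29.

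Elastic fibre genes rose in 2 of 18 measured members, with 17 positive and a median of 0.27. Over all genes 0.234% were called higher and 58.4% were positive. These were the microfibril proteins Mfap5, at 263, 342 and 419 against 199, 147 and 219, and Mfap4, at 158, 144 and 162 against 96.7, 101 and 80.3. The other Mfap5 probe set differed by 0.82 and was not called. Efemp1 was the member that went the other way, at 12.8, 13.6 and 16.7 against 23.9, 24.5 and 16.8, with no overlap but an adjusted p of 0.0835. Proteoglycans, proteases and inhibitors of the matrix had 1 called member of 24, the small proteoglycan Bgn, at 396, 436 and 526 against 246, 335 and 321. Its other probe sets differed by 0.61 and 0.71, neither called. The 21 measured genes of the TGF-beta pathway had 0 calls and 9 positive differences.

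Fibroblast markers were measured for 14 genes, of which 13 were positive and 3 rose, Mfap5 among them. Over all genes 58.4% were positive and 0.234% were called higher. Pi16, a peptidase inhibitor of resident fibroblasts, read 174, 233 and 284 against 142, 97.2 and 158, and Vim, the intermediate filament of mesenchymal cells, read 1609, 1514 and 2067 against 1246, 1055 and 1266. The other probe set of Pi16 differed by 0.42 and those of Vim by 0.41 and 0.46, none of them called. The lineage markers Pdgfra and Tcf21 differed by -0.04 and 0.09, and neither was called. The summed intensity of the list was 10966 to 14176 in TM175 and 9084 to 10626 in NTG, without overlap. In whole ventricle, more cells of a type and more RNA per cell cannot be told apart. The median of the matricellular list stayed between 0.25 and 0.38, that of the fibrillar collagens between 0.34 and 0.47 and that of the fibroblast markers between 0.21 and 0.31 when each array was left out in turn. For other cell types, 10 of 15 endothelial, 11 of 13 lymphocyte and 4 of 16 macrophage markers were positive, with 0 calls in each list. Red blood cell markers were positive in 5 of 5 measured genes, with a median of 0.26 and a summed intensity of 456 to 463.5 in TM175 and 339 to 376 in NTG, without overlap. Among them Hba-a1 was dim, at 21.55 to 30.05, where the median NTG intensity of all probe sets was 69.1. Adipocyte markers were positive in 6 of 6, with a median of 0.16 and overlapping sums. 0 of either list were called, and the part of these cells in the matrix and fibroblast values was not tested.

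**Figure D3:**
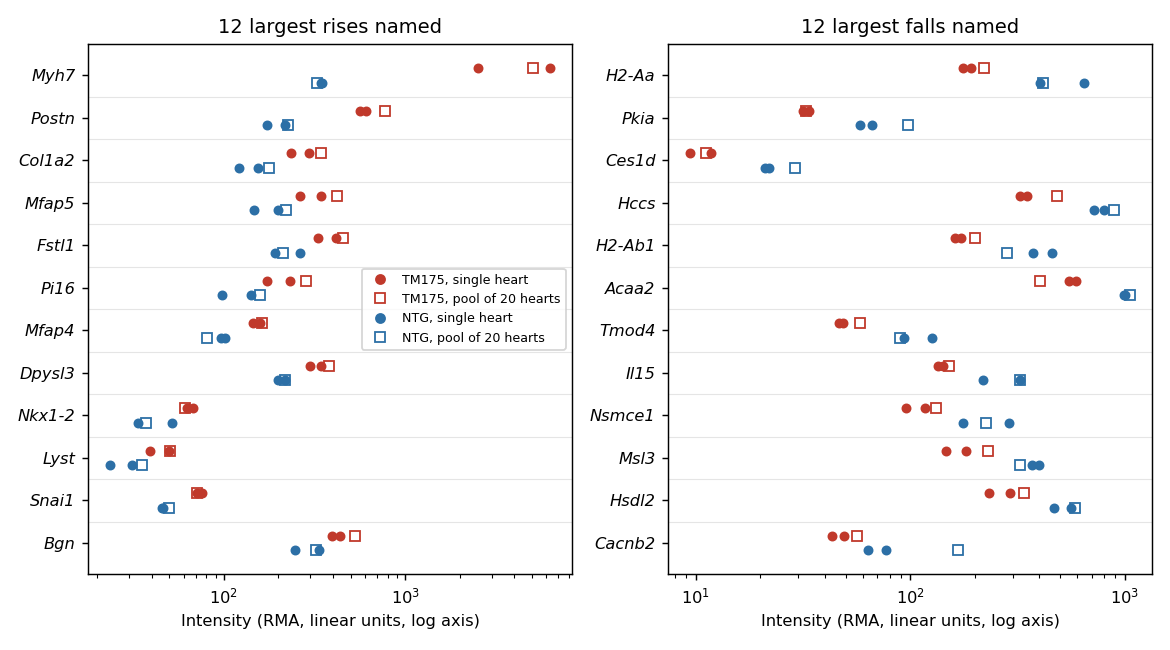
Intensities on log axes of the 12 largest named rises (left) and the 12 largest named falls (right), with red for TM175, blue for NTG, circles for single hearts and squares for pools. In all 24 genes the 3 TM175 arrays lie beyond the 3 NTG arrays, as the rule for choosing them required.

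Other rises lay in genes of several kinds. Snai1, a zinc-finger repressor of the epithelial-mesenchymal transition, read 70.9, 76.0 and 70.8 against 45.6, 46.4 and 50.0, 1.53-fold higher (95% interval 1.34 to 1.76; limma adjusted p 0.0281), and passed in 5 of 10 fits that left out 1 array. Dpysl3, a cytoskeletal protein of growing neurites and mesenchymal cells, read 299, 343 and 379 against 199.6, 219 and 218.5. Lpar1, a receptor for lysophosphatidic acid, rose by 0.59 on the log2 scale, and Jag1, a Notch ligand, was 1.42-fold higher. Masp1, a protease of the lectin complement pathway, Siglec1, a macrophage sialic acid receptor, and Myoz3, a Z-disc protein, were 1.39- to 1.41-fold higher. The other probe sets of Dpysl3, Lpar1, Jag1, Masp1 and Siglec1 differed by -0.10 to 0.40, none of them called. Nkx1-2, Krt81, Krtap19-4 and Mepe, genes known mainly from other tissues, were also called, at intensities of 26.5 to 149.4, and each passed in 1 to 4 of the 10 fits. The other Nkx1-2 probe sets differed by 0.11 and 0.05, neither called.

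The largest falls lay in genes of different roles. Hccs, the enzyme that attaches heme to cytochrome c in mitochondria, read 325, 349 and 484 in TM175 and 799, 716 and 887 in NTG. All TM175 arrays were below all controls, 2.10-fold by geometric mean (TM175 over NTG 0.476, 95% interval 0.407 to 0.558; limma adjusted p 0.00206), and its other probe set fell as well, by 0.87. Pkia, an inhibitor protein of protein kinase A, read 31.5, 33.5 and 32.7 against 66.5, 58.5 and 98.0, 2.23-fold lower (adjusted p 0.0044 in limma). Its other probe set differed by -0.56 with an adjusted p of 0.0576. Both Hccs and Pkia passed in 10 of 10 fits that left out 1 array. Rgs2, which speeds the shut-off of Gq-type G proteins, read 91.2, 82.8 and 90.6 against 152, 159 and 280 on one probe set and fell by 1.10, and its second probe set fell by 0.92. Ces1d, a carboxylesterase that splits triglyceride, read 9.41, 11.7 and 11.1 against 21.0, 21.8 and 29.1, which is near the bottom of the scale, and fell by 1.15. Its other probe sets differed by -1.11 and -0.71 with adjusted p of 0.0996 and 0.231.

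Genes of fatty acid oxidation mostly had negative differences. Of 30 measured genes of fatty acid uptake and oxidation 26 had a negative difference, 5 fell by at least 1 probe set, beside 1.15% of all genes, and 0 rose. The median was -0.32. Etfdh, which passes electrons from the acyl-CoA dehydrogenases to ubiquinone, read 893, 1019 and 929 against 1603, 1347 and 1752 and fell by 0.72 (limma adjusted p 0.0308). Echs1, the enoyl-CoA hydratase of the second step, read 1136, 1359 and 1031 against 1986, 1724 and 1837 and fell by 0.66. Acaa2, the thiolase of the last step, read 550.5, 595 and 403 against 1003, 996.5 and 1063 on the called probe set and fell by 1.00, while its brightest probe set differed by -0.59 with an adjusted p of 0.0734. Decr1, which handles unsaturated fatty acids, and Hadh, the 3-hydroxyacyl-CoA dehydrogenase, fell on dimmer probe sets by 0.76 and 0.56. The brighter Decr1 probe set differed by -0.54 and was not called. The other Hadh probe sets differed by -0.20, on the brightest, and by -0.05, and neither was called. Acadm, Hadha and Eci2 had negative differences of -0.41, -0.59 and -0.57 with adjusted p of 0.0628, 0.0544 and 0.0516. Cd36, the fatty acid transporter, differed by -0.15, and Cpt1a, the liver form of the mitochondrial entry enzyme, by 0.26.

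Ketone and branched-chain amino acid breakdown had a median of -0.41, with 23 of 23 measured genes negative and 2 called. Over all 12393 genes 5155 were negative and 1.15% were called lower. Dld, the dehydrogenase subunit shared by the pyruvate, oxoglutarate and branched-chain complexes, read 372, 298 and 293.5 against 579, 494 and 644 and fell by 0.83 (limma adjusted p 0.0308). Acat1, which joins and splits acetoacetyl-CoA, read 1076, 1218 and 1338 against 1920, 1668 and 2067 and fell by 0.64. Aldh6a1, of valine breakdown, read 191, 190 and 198 against 365, 314 and 312.5, with no overlap and an adjusted p of 0.0516. In the pyruvate dehydrogenase and citrate cycle list 27 of 27 were negative and 2 fell, beside the same shares. These were Mpc1, a subunit of the pyruvate carrier of the inner membrane, by 0.49, and Pdk1, a kinase that switches off pyruvate dehydrogenase, by 0.44 with overlapping arrays. The brighter Pdk1 probe set differed by -0.21 and was not called. Glucose uptake and glycolysis had 20 of 24 negative and 0 called.

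Other mitochondrial lists had mostly negative differences and few calls, beside 1.15% of all genes called lower. Of 74 measured mitochondrial ribosomal protein genes 72 were negative, with a median of -0.31, and 1 was called, a share near that of all genes. This was Mrpl15, at 559, 579 and 542 against 906, 752 and 761. Of its 6 other probe sets 1 was called, at -0.71, and the rest differed by -0.30 to 0.22. Complex I had 32 of 33 negative and 2 called, Ndufs4 by -0.54 and Ndufc2 by -0.71. For Ndufc2 the values were 342, 429 and 450 against 663, 583 and 745, without overlap, while its other probe set, the brighter one, differed by -0.11 with an adjusted p of 0.493. The other pair of Ndufs4 probe sets differed by -0.28 and -0.15, neither called. Complexes II to V had 39 of 50 negative, 0 called and a median of -0.13. Among 55 carriers and import genes 3 fell, the aspartate-glutamate carrier Slc25a13 by 0.64, the import receptor Tomm70a by 0.51 and the small import chaperone Timm10 by 0.51. The 3 other Tomm70a probe sets differed by -0.45 to -0.07 and were not called. Heme and cytochrome c assembly had 13 of 14 negative and 3 called, Hccs, Alas1, the first enzyme of heme synthesis, at 528, 619.6 and 510 against 889.5, 718 and 969, and Fech, the last enzyme, on 1 of 4 probe sets. The other 3 Fech probe sets differed by -0.37 to 0.21 and were not called.

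These medians moved with the scaling and with the level of the genes. All genes together had a median of 0.04, and probe sets brighter than the median level had -0.04. After a second quantile normalization the medians were -0.20 for fatty acid oxidation, -0.28 for ketone and branched-chain breakdown, -0.12 for the citrate cycle list, -0.18 for mitochondrial ribosomal proteins and -0.09 for complex I. When each array was left out in turn, the median stayed between -0.34 and -0.28 for fatty acid oxidation and between -0.50 and -0.31 for ketone and branched-chain breakdown. It stayed between -0.28 and -0.23 for the citrate cycle list, between -0.40 and -0.22 for mitochondrial ribosomal proteins and between -0.30 and -0.15 for complex I. Cytosolic ribosomal proteins had a median of -0.06 that turned to 0.04 after the second normalization, so no direction is given for them.

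**Figure D4:**
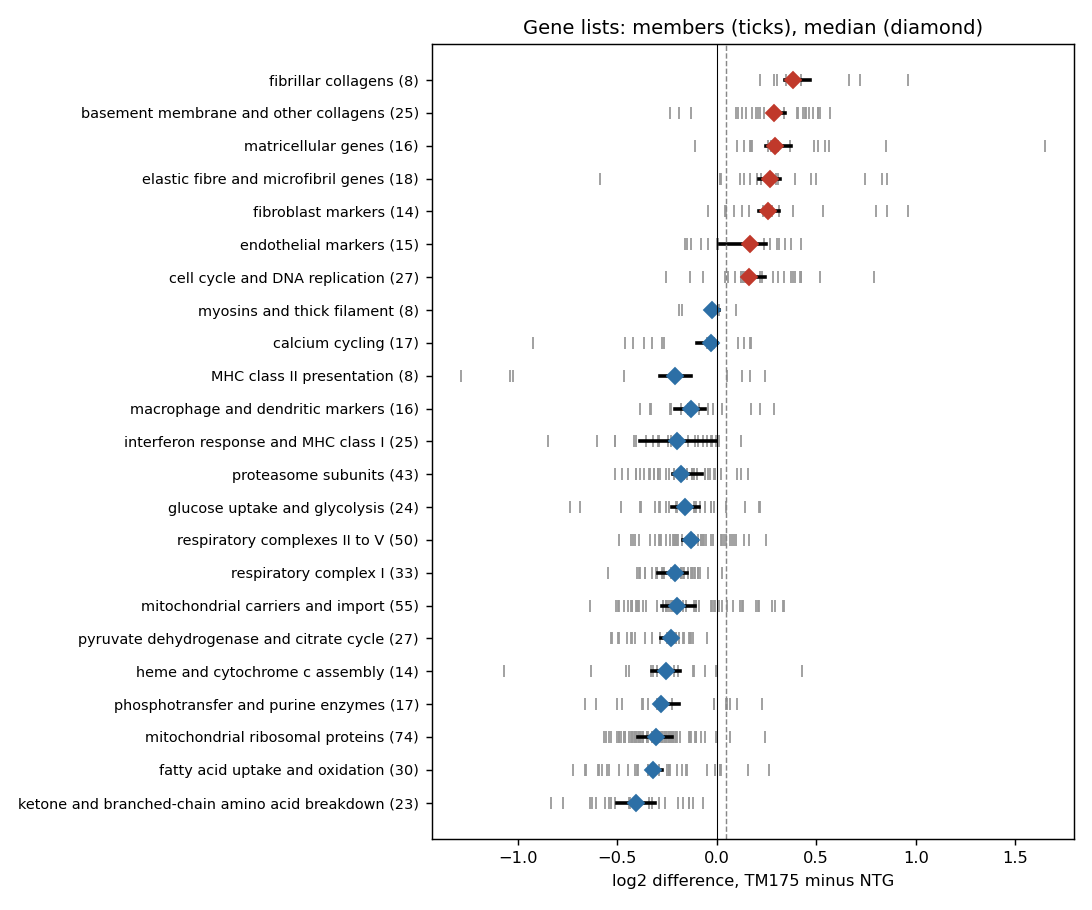
Log2 differences of the members of 23 gene lists (grey ticks; number measured in parentheses) with the list median (diamond) and, as a black bar, its range when each of the 10 arrays was left out in turn. The dashed line is the median of all genes, 0.04, and Myh7 at 3.67 lies outside the axis. Matrix lists lie to the right of it and mitochondrial lists to the left.

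Purine and phosphotransfer enzymes had 12 of 17 negative and 3 called. Over all 12393 genes 5155 were negative and 1.15% were called lower. Adssl1 and Adsl, which act in turn to turn IMP into AMP, read 399, 470 and 413 against 721, 605 and 627, and 97.3, 96.8 and 74.5 against 145, 129 and 149, and fell by 0.61 and 0.66. Adk, which returns adenosine to AMP, read 269, 267 and 266 against 494, 409.6 and 553 on its called probe set (limma adjusted p 0.0204), and its 3 other probe sets differed by -0.47 to -0.01. The creatine kinases Ckm and Ckmt2 differed by -0.34 and -0.01, and neither was called. Antioxidant genes that fell were Gsta4, a glutathione transferase for lipid aldehydes, by 0.73 and Prdx3, the mitochondrial peroxiredoxin, by 0.55.

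Class II antigen presentation genes divided. H2-Aa, the alpha chain of I-A, read 177, 192.5 and 220.2 in TM175 and 402, 648.5 and 416 in NTG on its brightest probe set, 2.44-fold lower (TM175 over NTG 0.410, 95% interval 0.314 to 0.536; limma adjusted p 0.0243). H2-Ab1, the beta chain, read 161, 172 and 201 against 372, 459 and 282 and was 2.06-fold lower, and all 3 of its probe sets were called. Cd74, the invariant chain, read 221, 264 and 347 against 466, 808 and 453, all below the controls, with an adjusted p of 0.0576. H2-Eb1 read 95.9, 89.0 and 77.8 against 76.2, 94.9 and 70.3 and differed by 0.13, and the class II regulator Ciita, at 29.4 to 42.2, differed by 0.24. Among the 16 macrophage and dendritic markers Csf1r, Adgre1 and Lyz2 differed by -0.02, 0.03 and -0.09, and the 3 C1q genes by -0.33 to -0.39, none called. The list's summed intensity was 2863 to 3939 in TM175 and 3412 to 4024 in NTG, which overlapped. H2-Aa passed in 7 and H2-Ab1 in 5 of the fits that left out 1 array, and neither passed without TM175 heart 1, at -1.21 and -0.95 with adjusted p of 0.0676 and 0.0783. NTG heart 2 was the highest control for H2-Aa, H2-Ab1 and Cd74. Without it H2-Aa and H2-Ab1 differed by -1.04 and -0.88. The 25 interferon-response and class I genes had a median of -0.44 in single hearts and 0.25 in pools, with 0 called. Their summed intensity was 7521 to 14850 in NTG and 7961 to 8875 in TM175, so the controls spread wider than the TM175 arrays.

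Signalling and excitation genes were touched in single members. Calcium cycling had 1 called of 17, beside 1.15% of all genes called lower. This was Cacnb2, an auxiliary subunit of the L-type calcium channel, at 43.0, 49.2 and 56.3 against 76.7, 63.5 and 166.1. The calcium pump gene Atp2a2 read 1592, 1704 and 1551 against 2005, 2093 and 1964, with no overlap, a difference of -0.32 and an adjusted p of 0.099. Its inhibitor Pln differed by -0.01. Rrad, a Ras-related GTPase that dampens L-type calcium channels, read 239.7, 215 and 326 against 455.5, 346 and 458 and fell by 0.70. Potassium and sodium channel genes had 13 of 17 negative and 0 called. Of 14 measured genes of the intercalated disc 2 fell, beside 1.15% of all genes. These were Dsc2, a desmosomal cadherin, by 0.72 and Cdh2, the N-cadherin of adherens junctions, by 0.47. Their other, brighter probe sets differed by -0.37 and -0.26, neither called. Tmod4, a cap of the pointed end of the thin filament, read 46.3, 48.5 and 58.5 against 126.5, 93.0 and 89.0 and fell by 1.00. Mef2a, a transcription factor of muscle genes, fell by 0.74 on its called probe set. Its other probe sets differed by -0.55 to -0.03, none of them called.

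Of the 171 called genes 47 were on a list and 124 on none, where the 53 lists together held 1067 of the 12393 genes. The called genes named here were grouped after their values were seen, so their grouping has no test. Several belong to peroxisomes and related fat metabolism. Hsdl2, a peroxisomal and mitochondrial dehydrogenase-like protein, read 291, 231.5 and 338 against 564, 467.5 and 589 and fell by 0.92 (limma adjusted p 0.0274), with a second probe set falling by 1.02. Acad11, an acyl-CoA dehydrogenase, fell by 0.81 and 0.89 on its pair of probe sets, and Hsd17b4, the peroxisomal bifunctional enzyme, fell by 0.53. Etfbkmt and Etfrf1, which act on the same electron transfer flavoprotein that feeds Etfdh, fell by 0.80 and 0.64. The other Etfrf1 probe set differed by -0.13 and was not called. Immt, an organiser of the inner membrane folds, Mtx2 and Mtch2 of the outer membrane, Clpx, a matrix chaperone, and Coq9 of ubiquinone synthesis fell by 0.50, 0.76, 0.69, 0.71 and 0.62. The 5 other Mtch2 probe sets differed by -0.60 to 0.32 and were not called.

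Other called falls concerned protein turnover, traffic and cell signalling. The ubiquitin-conjugating enzymes Ube2d1 and Ube2a fell by 0.82 and 0.54, and the ligase adaptors Fbxo3, Fbxo8, Asb8 and Asb12 by 0.66, 0.53, 0.63 and 0.57. Lamp2, a lysosomal membrane protein, and Gaa, the lysosomal enzyme that breaks down glycogen, fell by 0.70 and 0.61, and Phkb, a subunit of phosphorylase kinase, by 0.74. The vesicle GTPases Rab18, Rab1a and Sar1b fell by 0.87, 0.53 and 0.67. Il15, a cytokine of lymphocytes also made in muscle, read 141, 135 and 151 against 324, 218 and 325 and fell by 1.00, and Ifngr2, a chain of the interferon-gamma receptor, fell by 0.85. Ccnh and Cdk7, partners in the CDK-activating kinase, fell by 0.58 and 0.57 on 1 probe set each, while another probe set of each differed by 0.04 and 0.14, neither called. Smyd1, a muscle methyltransferase, read 778, 709 and 287 against 987.5, 1033 and 589.8 and fell by 0.64, with both pools below their single hearts and overlapping arrays. Its other probe sets differed by -0.52 and 0.45, the second with an adjusted p of 0.0584. Probe sets also parted in Fbxo3, where the other 3 differed by -0.31 to 0.33, and in Lamp2, where the other 3 differed by -0.22 to 0.08, none of them called. The other probe sets of Ube2a, Gaa, Rab18, Rab1a and Ifngr2 differed by only -0.25 to -0.07, and none was called.

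Single hearts and pools agreed in sign for all 195 called probe sets, which the choice by the same values favours. The median fall was -0.60 in single hearts and -0.73 in pools, and 116 of 166 falls were larger in pools. The median rise was 0.54 in single hearts and 0.58 in pools. Genes with larger falls in the pool included Fech, at -0.55 and -1.60, Cacnb2, at -0.60 and -1.56, and Rgs2 on its brighter probe set, at -0.62 and -1.53. The class II genes went the other way, with H2-Ab1 at -1.32 in single hearts and -0.49 in pools. Each pool is 1 array, so these values carry no test of their own. With the interaction of genotype and extract type fitted by limma, 1 of 22626 probe sets (0.00442%) passed, that of Norad, which was not called between the genotypes and where the NTG pool alone was high.

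**Figure D5:**
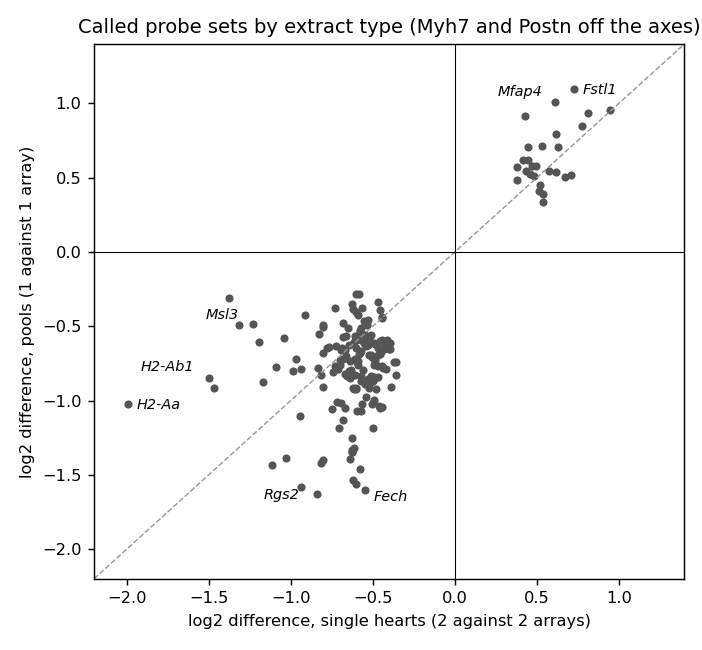
Log2 difference in pools against that in single hearts for the called probe sets, with the line of equal values dashed; Myh7 and Postn, the largest rises, lie outside the axes. All points lie in the lower left or upper right, Fech and Rgs2 fall more in pools, and H2-Aa, H2-Ab1 and Msl3 fall more in single hearts.

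The alpha-TM180 line was compared with the same 3 NTG arrays, so both comparisons share their controls and are not independent. The median TM180 minus NTG difference was 0.52 over the rises and -0.36 over the falls of TM175. Side by side, Postn differed by 1.65 in TM175 and 2.36 in TM180, Myh7 by 3.67 and 3.30, Hccs by -1.07 and -1.02, Pkia by -1.15 and -0.83, and Dsc2 by -0.72 and -0.14. The direct test of TM180 against TM175 passed for 6 of 22626 probe sets (0.0265%) and for 1 of the 195, that of Rrad. At an unadjusted p under 0.05 in limma it held 117 of the 195, beside 5748 of all 22626. That test shares the TM175 arrays with the comparison that chose the 195.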

How the data were processed

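Total RNA of mouse ventricles was labelled with biotin and hybridised to Affymetrix arrays, 1 per extract. The authors deposited linear intensities, 1 per probe set and array, from RMA per the submitters' processing notes; RMA includes background correction, quantile normalization and a summary over probes. Its version is not given in the sources used here. In the deposited table a point set off the last 3 digits of intensities of 1000 or more. This was undone for 7863 of 226900 values in 1058 probe sets by setting each value against the other arrays of its probe set. For 223 tested probe sets the level stayed unsettled and values were kept as written, which leaves log2 differences as they are, since all 10 values share a range. Log2 was then taken.

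After 64 control probe sets were set aside, 22626 were tested. The platform annotation gave 1 symbol to 20380 of them, more than 1 to 691 and none to 1555, and the first kind stood for 12393 genes. The model, run in limma 3.58.1 under R 4.3.3 with lmFit and eBayes, had a mean for each genotype and a term for extract type (single heart or pool) and used all 10 arrays. Tests were two-sided with Benjamini-Hochberg adjustment over the 22626 probe sets, called under 0.05. Folds are ratios of geometric means with 95% intervals. With 3 arrays a group, their number limits the precision. The fitting script was tested on simulated data. Tables and plots were made in Python 3.11.15 with pandas 2.3.3, numpy 2.4.6 and matplotlib 3.10.9.

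The comparison and the 53 gene lists were chosen with earlier results of these data known. A list was described by the brightest settled probe set per gene, by counts and by its median, with no test of the list; a member counted as called where any of its probe sets was. Named genes were the up to 25 largest rises and 30 largest falls whose arrays did not overlap, up to 4 called members of each list, and Tpm1, Myh7, Myh6, Nppa, Nppb, Acta1, Atp2a2, Pln and the sex-linked genes. Other members of the lists are named as values, chosen after these were seen. Alternatives covered extract type, pools, a replicate block, array weights, scaling, dim, unsettled and bright probe sets, the fit's settings, the threshold, a fold limit and each array left out.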

Additional observations from a re-analysis of the deposited data

Results flagged for a closer look

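Rrad, a Ras-related GTPase that dampens L-type calcium channels, differed between the 2 transgenic lines. It read 239.7, 215.1 and 326.3 in TM175, 455.5, 346.0 and 457.8 in NTG, and 533.2, 633.1, 551.4 and 531.0 in TM180. All 4 TM180 arrays were above all 3 TM175 arrays, by 1.146 on the log2 scale (limma adjusted p 0.0388), while TM180 minus NTG was 0.45 with an adjusted p of 0.132. It was the only one of the 195 probe sets called between TM175 and NTG to pass this test, and the next smallest adjusted p among them was 0.0747. Both comparisons use the same TM175 arrays.

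Norad, a long noncoding RNA, was the only probe set to pass the test of a TM175 minus NTG difference between extract types, which rests on 1 pooled array per genotype and assumes that a pool varies like the single hearts. It did not pass in the 6 TM175 and NTG arrays alone. The difference was -0.17 in single hearts and -2.35 in pools, so that pooled minus individual was -2.1791 (limma adjusted p 0.0351). The probe set was dim, at 10.1, 11.5 and 16.4 in TM175 and 12.2, 11.98 and 83.3 in NTG, and the NTG pool alone was high among the 6. The TM180 pool, at 46.6, was also above the 3 TM180 single hearts, at 10.9 to 11.8.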

How the results depend on the processing

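The 195 calls became 2 without extract type, 3 in single hearts only (Hccs, Myh7, Msl3), 4 in the 6 TM175 and NTG arrays alone (Hccs, Postn, Ces1d, Myh7), 423 with array weights, 437 with median centring and 310 above the median level, and 4 passed an adjusted p of 0.01 and 124 a fold of 1.5. Leaving out each array gave 5 to 1247 calls; the 1247 without NTG heart 2 held all 195. Without TM175 heart 1 and extract type together, an alternative chosen after seeing the data, 2 passed (Myh7, Nppa). The count stayed within 1.5 times of 195 after a second quantile normalization, with an intensity trend and robust fitting, and without unsettled or bright probe sets. After the second quantile normalization 187 passed, 45 higher and 142 lower, of which 122 were among the 195. Replicate numbers paired no hearts in the labels, and deviations of equally numbered arrays correlated at -0.11, 0.39 and 0.71, the last being both pools. The fit with the replicate number as a block gave 4 calls (Hccs, Postn, Hsdl2, Myh7). The 1 call for the interaction with extract type became 0 in the 6 arrays alone. The 1 call of TM180 against TM175 became 0 without extract type and 0 to 42 when each array was left out, 42 without NTG heart 1. Tpm1 passed at 0.39 (limma adjusted p 0.0423) with array weights, at 0.39 (0.0441) above the median level, at 0.39 (0.0407) with trend and robust fitting and at 0.42 (0.0326) without NTG heart 2, within 0.36 to 0.42 over the arrays left out. No difference of a named gene that was called changed its sign under any alternative run here.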

Other observations

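Hccs and Msl3, a subunit of a histone acetyltransferase complex, both fell and stand near each other at one end of the X chromosome. In RefSeq order Arhgap6 and Amelx are the genes with a tested probe set between them. Msl3 read 181.5, 147.2 and 231.3 in TM175 and 398.7, 369.3 and 324.0 in NTG and fell by 0.98 (limma adjusted p 0.0281), and Hccs fell by 1.07. Arhgap6 and Amelx differed by -0.16 and 0.28, and Mid1, the next gene on the other side of Hccs, by 0.03, none of them called. Prps2, beyond Msl3, read 31.3, 33.5 and 29.7 against 38.4, 39.6 and 47.9, all TM175 arrays below all controls, with an adjusted p of 0.0844. Of 169 called genes placed on the chromosomes 9 were on X, which held 393 of 12155 genes placed.

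Only 3 pairs of called genes were direct neighbours among genes with a tested probe set: H2-Ab1 with H2-Aa, Glrx with Slf1, and Rnf114 with Snai1, the last in opposite directions at -0.48 and 0.62. Cdh2 and Dsc2, 2 cadherins, and Kpna2 and Nol11 each had 1 measured gene between them, and all 4 fell.

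Genes of cell division had positive differences without a call. Of 27 measured cell cycle and DNA replication genes 24 were positive, 8 with an unadjusted p under 0.05 beside 12.8% of all genes higher at that level, and 0 passed the adjusted test in limma. Gmnn, a brake on DNA replication that was on no list, fell by 0.89, at 127.4, 192.3 and 180.8 against 349.6, 268.9 and 297.5.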
